A study of Mus musculus with 6 samples.

Results

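Membrane transport genes were followed in the neocortex of mice that lack KHSRP, an RNA-binding protein known for targeting mRNAs with AU-rich elements for decay. The members are the 38 array probes of 37 genes whose symbols begin with Slc (solute carriers), with Abc and a subfamily letter (ATP-binding cassette transporters) or with Atp and a digit (ATPases and ATP synthase), without Slc1a2 and Slc25a41. They were drawn from the 1788 named probes in the study's own list of transcripts that changed on these same arrays, out of 60915 probe names per array. Of the 38, 34 came from the 1522 probes listed as higher in the knockout and 4 from the 266 listed as lower. The direction and rough size of each change were therefore fixed by the choice, so member values are given as a description and without a test. The list's higher block starts at a log2 difference of 0.32 in normalized values, its lower block at a ratio of 0.499 in unscaled intensity. The paper itself reports more mRNAs lowered than raised in the knockout. With such unlike edges, the split of 34 against 4 does not give the balance of directions among transporters, which was not tested.

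Adult male Khsrp-/- mice (labelled KHSRP-KO) were compared with adult male wild type littermates (WT), with 3 mice of each genotype and 1 single-colour array per mouse. The deletion is constitutive and is carried by every cell, and the line had been crossed onto C57Bl/6. Total RNA was extracted from neocortex, labelled cortex by sample and PFC in the study's list, and rRNA was removed before labelling. In bulk tissue, fewer cells of a type and less RNA per cell cannot be told apart. The arrays carry no gene names of their own, so neither Khsrp, the targeted gene, nor the labelled genotype could be checked on them.

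Solute carriers move sugars, amino acids, ions, metals, nucleosides and organic acids across membranes, mostly along gradients, and are grouped into families by sequence. ABC transporters spend ATP to export lipids, peptides and conjugates or to bring fatty acids into peroxisomes, and P-type ATPases pump ions or flip phospholipids. In brain these proteins supply fuel and amino acids, end transmitter and adenosine signals, and set the ion gradients on which neuronal firing depends.

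All arrays were free of saturated spots, and between 71.3% and 82.6% of spots were well above background. Levels are scaled intensities, in arbitrary units after each array was brought to the same 75th percentile of 423, and they can be compared between arrays for a probe but not between probes. Of the members, 36 probes were well above background on all 6 arrays, against 68.9% of all probes. The exceptions were Slc6a19, above background on 1 of 3 wild type arrays, and Slc44a1, on none of them. The arrays fell into 3 pairs with the same scan time. Wild type 1 and 2 shared a scan, knockout 2 and 3 shared another, and knockout 1 with wild type 3 was the only scan that held both genotypes.

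The promoters of the probe with the largest increase (Slc38a8), of the increase with the smallest SE (Slc16a3), and of both decreased genes with an entry (Slc38a10 and Slc25a25) are shown from RefSeq on GRCm38.p6. Each runs 5′ to 3′ and ends 50 bases past the annotated start. Capitals mark exact matches to the GC box GGGCGG or the cAMP response element TGACGTCA on either strand. For Slc25a25, 3 starts are listed, and the window printed is the start that holds the cAMP response element.
Slc38a8, chr8:119501649-119501948, minus strand: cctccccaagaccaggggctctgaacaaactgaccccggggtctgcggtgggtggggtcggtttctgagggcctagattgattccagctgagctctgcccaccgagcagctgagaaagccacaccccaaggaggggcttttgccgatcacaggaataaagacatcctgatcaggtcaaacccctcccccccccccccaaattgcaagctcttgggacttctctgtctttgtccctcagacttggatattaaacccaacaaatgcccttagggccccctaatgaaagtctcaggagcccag
Slc16a3, chr11:120948817-120949116, plus strand: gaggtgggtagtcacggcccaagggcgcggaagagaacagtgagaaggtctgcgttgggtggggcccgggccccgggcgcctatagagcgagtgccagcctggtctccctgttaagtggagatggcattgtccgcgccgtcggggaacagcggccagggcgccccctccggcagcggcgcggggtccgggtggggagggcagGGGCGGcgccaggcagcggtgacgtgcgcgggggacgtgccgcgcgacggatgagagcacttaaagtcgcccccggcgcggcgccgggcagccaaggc
Slc38a10, chr11:120151302-120151601, minus strand: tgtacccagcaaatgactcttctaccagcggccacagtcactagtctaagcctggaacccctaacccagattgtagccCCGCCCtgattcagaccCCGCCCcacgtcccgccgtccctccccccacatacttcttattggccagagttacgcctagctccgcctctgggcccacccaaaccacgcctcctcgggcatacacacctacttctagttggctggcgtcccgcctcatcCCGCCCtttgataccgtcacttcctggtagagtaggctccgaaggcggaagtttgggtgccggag
Slc25a25, chr2:32424017-32424316, minus strand: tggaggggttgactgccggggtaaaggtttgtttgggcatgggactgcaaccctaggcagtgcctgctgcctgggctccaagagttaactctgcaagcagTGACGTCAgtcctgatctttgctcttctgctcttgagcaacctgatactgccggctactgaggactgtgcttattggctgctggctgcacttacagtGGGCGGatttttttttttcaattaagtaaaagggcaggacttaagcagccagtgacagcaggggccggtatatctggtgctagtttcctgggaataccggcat
Of the 37 genes, all were found in the RefSeq gene table and 27 had a promoter there. Since some genes have several starts, these 27 genes have 45 promoter windows. The GC box occurred in 22 of the 45 windows and in 35.7% of all 32851 promoters on the other chromosomes. TGACGTCA occurred in 1 of the 45 (Slc25a25) and in 1.79% of all promoters. The TATA box TATAAA was present in 3 windows (Slc16a4, Slc35b3 and Slc4a10) and in 13.6% of all promoters, and the E-box CACGTG in 5 windows and in 7.15% of all promoters. The promoter shown for Slc38a8 held none of these 4 motifs and 5 CpG dinucleotides, whereas that of Slc16a3 held 36. Motif matches are descriptions of letters in these windows.

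Across the 34 members listed as higher, the difference between genotypes (log2, knockout minus wild type) ran from 0.33 for Slc9a2 to 1.52 for Slc38a8, with a median of 0.49. For all probes tested the median was -0.00. Differences reached at least 1 for 5 members (Slc38a8, Slc22a3, Slc6a19, Slc39a11 and Slc34a3), lay between 0.5 and 1 for 12, and were under 0.5 for 17. The 4 members listed as lower were Slc9a4, Slc38a10, Slc6a18 and Slc25a25, at -1.07 to -0.79. In limma's fit over 48438 probes, 25 of the 33 higher members tested were called at an unadjusted p under 0.05 and a log2 difference of at least 0.32 (the study's fold threshold), beside 9.26% of all probes called higher. All 4 lower members were called, beside 7.03% of all probes called lower. With Benjamini-Hochberg adjustment over all probes limma called 0 members, beside 0.0826% of probes higher and 0.0124% lower. The methods' t-test put 27 higher and 3 lower members under an unadjusted 0.05, beside 8.19% and 4.76% of all probes, and 0 after adjustment. Slc6a19 passed the filter on dim probes through its knockout arrays, where it is high. These shares were fixed in part by the choice of members, and nothing is read from them.

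In 31 of the 34 higher members, every knockout array was above every wild type array, beside 12.4% of probes that passed the filter on dim probes. The exceptions were Slc39a10, Slc2a13 and 1 of the Atp2a2 probes. Slc44a1 is among the 31 although it did not pass that filter. In all 4 lower members every knockout array was below every wild type array, beside 9.9% of probes that passed it. The least changed entries of the study's list stood at a log2 difference of 0.32 in its normalized values for the higher block, and at a ratio of 0.499 in unscaled intensity for the lower block. The members nearest these edges were at 0.33 and at a ratio of 0.487.

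**Figure D1:**
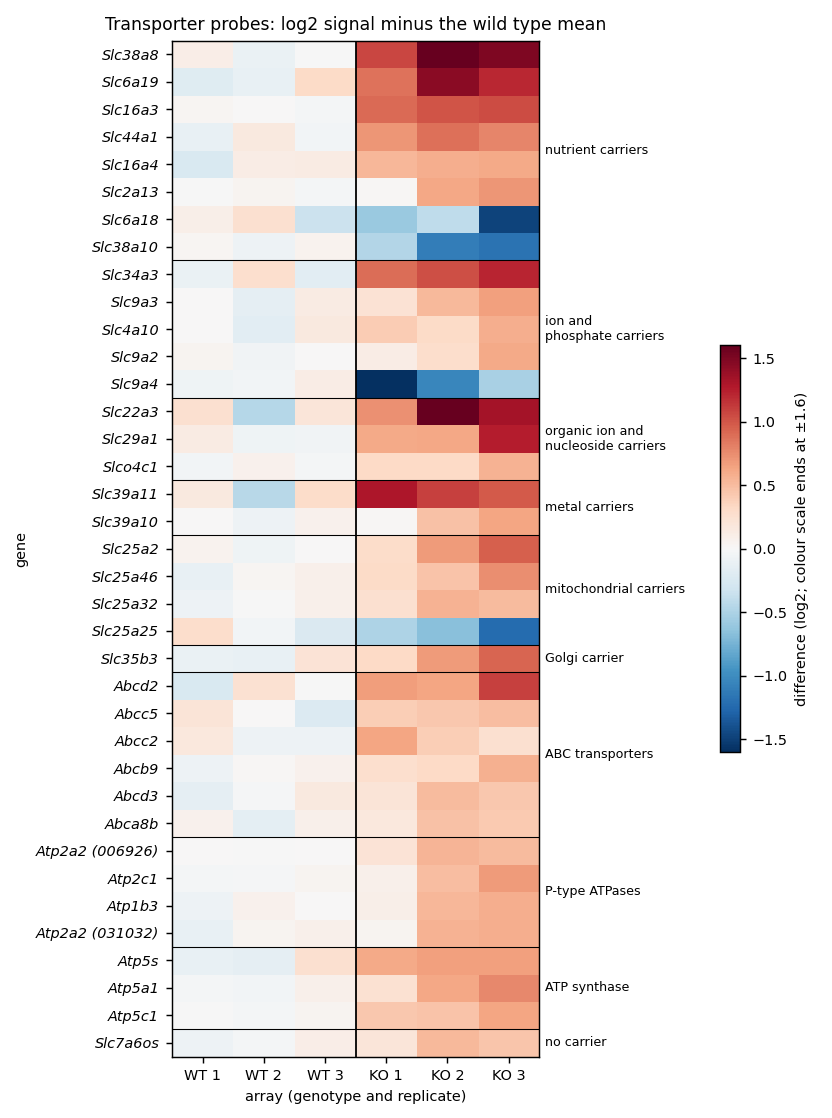
Log2 signal of 37 of the 38 probes (rows, by role) minus its wild type mean on each of the 6 arrays (columns), red where higher and blue where lower. Knockout columns are red except for Slc38a10, Slc6a18, Slc9a4 and Slc25a25, and knockout 1 is the palest knockout column for most higher genes.

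The knockout arrays were not alike. Knockout 1 was the lowest knockout array for 29 of the 34 higher members, beside 40.1% of probes that passed the filter on dim probes. Slc44a1, which did not pass it, stays among the 34 here and below. The median deviation of these 34 from the wild type mean was 0.32 in knockout 1, 0.56 in knockout 2 and 0.65 in knockout 3. Between knockout arrays the 34 higher members had a median SD of 0.20 and between wild type arrays 0.11, where all probes tested had 0.27 and 0.17. On the shared scan, knockout 1 exceeded wild type 3 for 32 of the 34, beside 49.5% of probes that passed the filter. The median difference was 0.27, with a range from -0.04 to 1.08. That difference was smaller than the one over all arrays for 31 of the 34. The 4 lower members were lower there as well, with a median of -0.39. Both arrays were among those on which the members had been chosen. The pair is therefore no separate check, nor is the scan block that follows. With scan as a block, which leaves this pair to carry the comparison, 6 higher members were called (Slc38a8, Slc39a11, Slc34a3, Slc16a3, Abcc2 and Abcc5) and 2 lower ones (Slc9a4 and Slc38a10), beside 3.64% of all probes higher and 2.26% lower. Before scaling, all probes were lower in the knockout by a median of -0.29, the 34 members lay at 0.04 to 1.23, and 12 of them differed by at least 0.32.

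**Figure D2:**
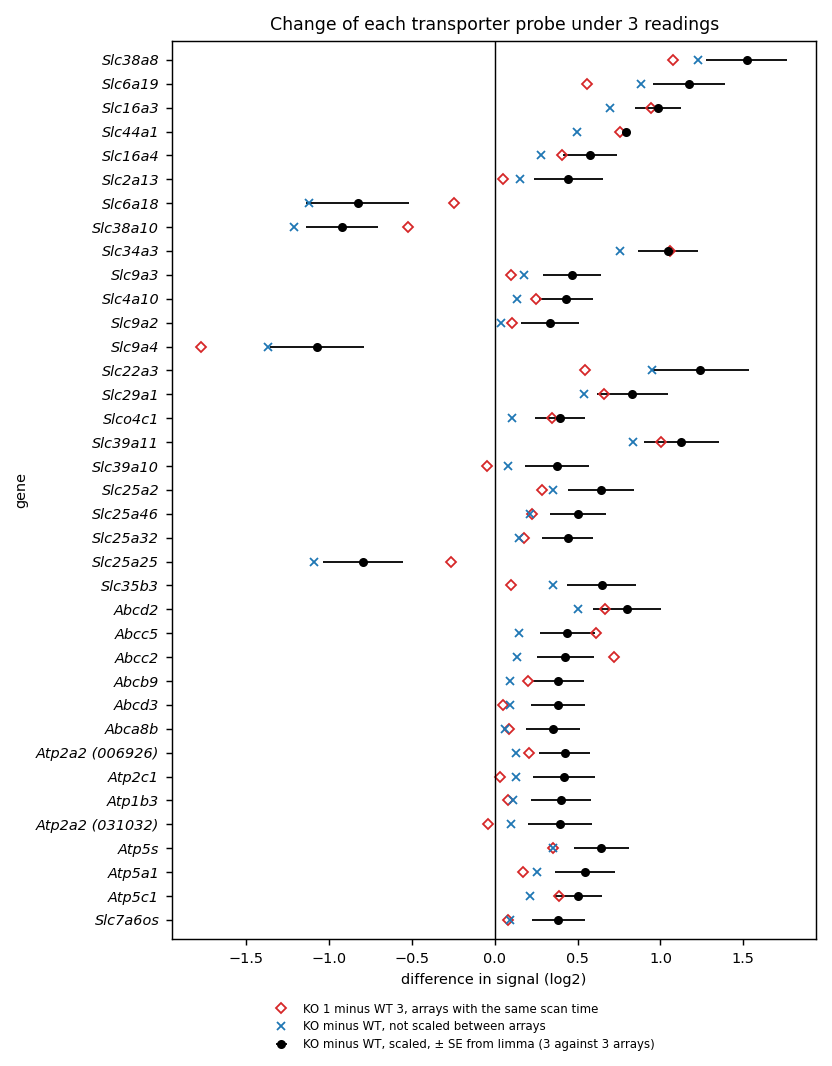
Difference in log2 signal between genotypes for 37 of the 38 probes (black points, knockout minus wild type, bars ± SE from limma; no bar for Slc44a1, which was not tested), the difference between knockout 1 and wild type 3 of the shared scan (red diamonds), and the difference without scaling (blue crosses). Crosses lie to the left of the points by a constant 0.29, and most diamonds lie nearer to 0 than the points.

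Nutrient carriers held the largest increase and 2 of the 4 decreases. Slc38a8, a sodium-coupled carrier of glutamine and other neutral amino acids, read 85.5, 162 and 115 on knockout arrays 1 to 3 and 44.1, 38.1 and 40.5 on the wild type arrays. The knockout arrays all lay above the wild type, knockout 2 highest, with a difference of 1.52 ± 0.24 (log2, SE from limma, n = 3 against 3, as for each SE that follows). Its relative Slc38a10, also a carrier of amino acids such as glutamine and glutamate, read 21208, 13677 and 12937 against 29924, 27857 and 30428. Knockout 2 and 3 were well under knockout 1, which in turn was under every wild type array, and the difference was -0.92 ± 0.22. On the shared scan it was 1.08 for Slc38a8 and -0.52 for Slc38a10. With another background correction (normexp, offset 50), the Slc38a8 difference was 0.92. The offset is added to every intensity, so differences of dim probes shrink by construction.

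The Slc6 family also held a higher and a lower probe, for neighbouring genes. Slc6a19, the sodium-dependent neutral amino acid transporter of gut and kidney, read 22.7, 33.7 and 28.8 in the knockout and 10.9, 11.5 and 15.4 in wild type. Since the probe was above background on 1 wild type array only, its wild type level is poorly measured, and the difference of 1.17 (0.48 with normexp) is not a reliable size. Slc6a18, a related transporter best known from kidney, read 889, 1007 and 481 in the knockout and 1424, 1600 and 1054 in wild type (-0.83 ± 0.31). The genotypes did not overlap for either gene, but knockout 2 at 1007 and wild type 3 at 1054 nearly met for Slc6a18. Shared-scan differences were 0.56 and -0.25. In RefSeq's gene order no protein-coding gene lies between them, on chromosome 13, and Slc9a3 is 7 genes from Slc6a19.

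Among the carriers of monocarboxylates, Slc16a3, which exports lactate from glycolytic cells such as astrocytes, had the tightest values of any member. It read 89.7, 96.5 and 98.8 in the knockout and 48.9, 48.1 and 46.7 in wild type, and was chosen for this display after its values were seen. All knockout arrays stood near a doubling, at 1.98-fold (0.99 ± 0.14), the shared scan gave 0.94, and normexp 0.60. Slc16a4, of the same family, was higher by 0.57 (SD 0.04 in knockout and 0.21 in wild type). Slc2a13, which couples protons to myo-inositol uptake, was higher by 0.45, but knockout 1 lay within the wild type range and the shared scan gave 0.05. The choline carrier Slc44a1 was well above background on 2 of 3 knockout arrays and on no wild type array, and was not in the fit. The geometric mean of the 2 knockout arrays that measured it was 1.53-fold that of the dimmest signals well above background on the wild type arrays.

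Sodium-proton exchangers, which set intracellular pH and carry sodium in epithelia of gut and kidney, also split. The Slc9a4 probe gave 21.4, 32.7 and 47.2 in the knockout against 64.4, 65.4 and 73.1 in wild type. Wild type arrays were close together and the knockout arrays spread over more than a doubling below them (-1.07 ± 0.28). Here knockout 1 was the lowest, and the shared-scan difference of -1.77 was the largest of any member. With normexp, whose offset shrinks the differences of dim probes such as this one, the Slc9a4 difference was -0.32 and was not called. For Slc9a2 the readings were 59454, 66774 and 83448 against 56628, 53016 and 55188 (0.33 ± 0.17), and for Slc9a3 84.8, 103 and 113 against 72.3, 65.3 and 79.1 (0.47 ± 0.17). Both were separated from wild type by a narrow gap at knockout 1, with shared-scan differences of 0.11 and 0.10. Slc9a2 and Slc9a4 are neighbours on chromosome 1, with no protein-coding gene between them.

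**Figure D3:**
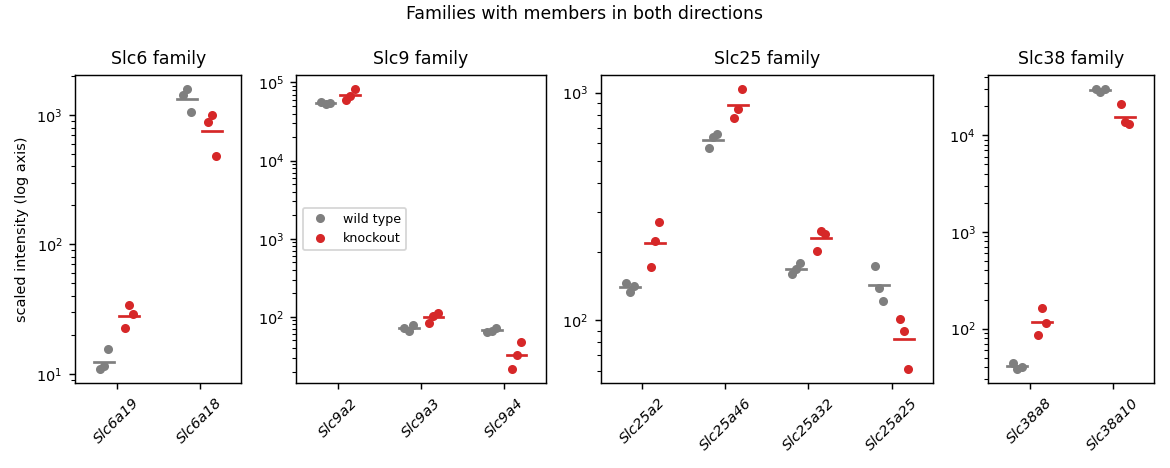
Scaled intensity (arbitrary units, log axis, a separate axis per panel) of the 11 probes in the 4 solute carrier families with members in both directions, for the 3 wild type arrays (grey) and the 3 knockout arrays (red), with bars at geometric means. Slc6a18, Slc9a4, Slc25a25 and Slc38a10 lie lower in the knockout and the other 7 probes higher; heights of different probes cannot be compared.

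In the same functional group, Slc34a3, a sodium-phosphate cotransporter known from kidney, read 270, 296 and 338 in the knockout and 135, 176 and 130 in wild type. Every knockout array was well above every wild type array, with a difference of 1.05 ± 0.18 and 1.06 on the shared scan. Slc4a10, a sodium-driven bicarbonate transporter of neurons, was higher by 0.43 (SD 0.13 and 0.16), and by 0.25 on the shared scan.

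Of the carriers of organic ions and nucleosides, Slc22a3 and Slc29a1 were above the median of the higher members and Slco4c1 below it. Slc22a3, a low-affinity carrier of monoamines and other organic cations, read 673, 1278 and 1014 in the knockout and 484, 296 and 462 in wild type (1.24 ± 0.30). Knockout 2 was highest and wild type 2 lowest, and the shared scan gave 0.54. Slc29a1, the equilibrative nucleoside transporter that clears adenosine, read 608, 615 and 957 against 436, 380 and 384 (0.83 ± 0.21). Knockout 3 stood above the other knockout arrays, and each of these was above all wild type arrays, with 0.66 on the shared scan. Slco4c1, an organic anion transporter, was higher by 0.40 (SD 0.14 and 0.06), and was not called with normexp. Slc22a3 and Slc29a1 lie on chromosome 17, as Khsrp does, and the other 35 member genes do not.

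Of the metal carriers, Slc39a11 was called and Slc39a10 was not. Slc39a11, a zinc transporter of the ZIP family, read 107, 93.7 and 86.7 in the knockout and 48.6, 32.3 and 53.6 in wild type (1.13 ± 0.22). Knockout 1 was the highest array, the shared scan gave 1.0, and normexp 0.71. Slc39a10, a zinc importer of the same family, read 54861, 74877 and 83428 against 54338, 51174 and 56586 (0.37 ± 0.19). Its knockout 1 lay inside the wild type range, and on the shared scan the sign turned, to -0.04.

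Of the mitochondrial carriers, which exchange metabolites and nucleotides across the inner membrane, 3 were higher and 1 lower. Slc25a25, a calcium-regulated exchanger of ATP-magnesium for phosphate, read 102, 90.1 and 60.9 in the knockout and 173, 138 and 122 in wild type. All knockout arrays were below wild type, knockout 3 the lowest (-0.79 ± 0.24, with -0.26 on the shared scan and -0.45 with normexp). Slc25a2, a carrier of ornithine and basic amino acids, read 172, 224 and 271 against 146, 133 and 141 (0.64 ± 0.20). Slc25a46, an outer membrane protein of this family linked to mitochondrial shape, read 770, 851 and 1043 against 572, 638 and 658 (0.50 ± 0.17). Slc25a32, which carries folate and FAD, read 202, 248 and 239 against 160, 168 and 178 (0.44 ± 0.15). None of the 3 overlapped with wild type, and their shared-scan differences were 0.28, 0.23 and 0.18. The Golgi carrier Slc35b3, which brings in the sulfate donor PAPS, read 98.5, 127 and 150 against 73.3, 72.7 and 92.0 (0.64 ± 0.21). Knockout 1 was just above wild type 3, with a shared-scan difference of 0.10, and normexp gave 0.40.

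All 6 ABC transporters, listed for their increase, were higher without overlap, by 0.35 to 0.80, beside the 12.4% of probes that passed the filter. Abcd2, which takes very long-chain fatty acyl-CoA into peroxisomes, read 7052, 6847 and 9501 in the knockout and 3744, 5264 and 4437 in wild type. Each knockout array was above each wild type array (0.80 ± 0.20, and 0.67 on the shared scan). Abcc5, an exporter of cyclic nucleotides, read 1076, 1104 and 1150 against 945, 822 and 705 (0.44 ± 0.16). Its knockout arrays were nearly level and wild type 3 was the lowest, so the shared scan gave a larger difference of 0.61. Abcc2, an exporter of organic anion conjugates, was higher by 0.43 overall and by 0.72 on the shared scan, and was not called with normexp, at 0.29. Abcd3, a further peroxisomal fatty acid transporter, Abcb9, a lysosomal peptide transporter, and Abca8b, of a lipid transport subfamily, were higher by 0.38, 0.38 and 0.35. Abcd3 and Abca8b were not called, and their shared-scan differences were 0.05 and 0.09. Abcd2 and Slc2a13 lie close on chromosome 15, with 1 protein-coding gene between them, CN725425.

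P-type ATPases were higher by 0.39 to 0.42 over 4 probes, of which 1 was called, beside the 9.26% of all probes. Atp2a2, the calcium pump of the endoplasmic reticulum, had 2 probes. Probe ASMM10P006926, the called one, read 16420, 20659 and 19989 in the knockout and 14145, 14000 and 14201 in wild type (0.42 ± 0.15), with no overlap. Probe ASMM10P031032 read 55737, 79659 and 81469 against 49758, 55979 and 57290 (0.39 ± 0.19), with knockout 1 inside the wild type range. The probes disagreed in sign on the shared scan, at 0.21 and -0.04. Atp2c1, the calcium and manganese pump of the Golgi, and Atp1b3, a beta subunit of the sodium pump, were higher by 0.42 and 0.40 but by 0.03 and 0.08 on the shared scan, and neither was called.

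The 3 probes for ATP synthase, the rotary enzyme that makes mitochondrial ATP, were higher and called, beside the 9.26% of all probes. Atp5a1, the alpha subunit of the catalytic head, read 758, 986 and 1088 in the knockout and 628, 619 and 674 in wild type (0.54 ± 0.18). Atp5s, a coupling factor listed as Dmac2l in RefSeq, read 447, 464 and 461 against 270, 266 and 350 (0.64 ± 0.17). Knockout arrays were level for Atp5s and spread for Atp5a1, and shared-scan differences were 0.35 and 0.17. Atp5c1, the gamma subunit that forms the rotor shaft, was higher by 0.50 (SD 0.11 and 0.03), with 0.39 on the shared scan. Slc7a6os, named for lying opposite the carrier gene Slc7a6 and itself no carrier, was higher by 0.38 (SD 0.17 and 0.10) and by 0.08 on the shared scan.

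Genes that work with these transporters could be followed only where the study's list names them, so they too had been chosen for change. Peroxins, which build the peroxisome where Abcd2 and Abcd3 act, had 7 probes, all higher by 0.37 to 0.92, and 6 were called, beside the 9.26% of all probes. The largest were Pex5, the import receptor (0.92 ± 0.29), and Pex3, a membrane assembly factor (0.87 ± 0.22). Pex5 was dim, at 27.2, 36.0 and 51.1 in the knockout and 18.1, 25.8 and 15.7 in wild type. The dimmest signals well above background on the wild type arrays were 13.6 to 14.5, so the size for Pex5 is poorly measured. Tmem30a, a subunit of phospholipid flippases, was higher by 0.44 ± 0.17, but by 0.03 on the shared scan. Tmem70, an assembly factor of ATP synthase, was higher by 0.44 and 0.46 on its 2 probes and by 0.00 and 0.02 on the shared scan. Probes chosen by respiratory chain symbols (Nduf, Sdh, Uqcr, or Cox and a digit) numbered 8. They were higher by 0.41 to 1.0, and 6 were called, beside the 9.26% of all probes. Cox7b and Cox7a1, subunits of cytochrome c oxidase, and Ndufs4, a subunit of complex I, were higher by 1.0, 0.98 and 0.93, and by 0.59, 0.40 and 0.51 on the shared scan. Cox6a2, Cox7b2 and Ndufab1 were higher there by 0.43, 0.43 and 0.19. Cox14 and Ndufb5, which were not called, overlapped with wild type and were at -0.01 and -0.04 there.

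The gatekeepers of mitochondrial calcium uptake Micu2 and Micu3 were higher by 0.47 and 0.55, with 0.01 and 0.04 on the shared scan. Both were called, beside the 9.26% of all probes called higher. Among probes chosen by symbols beginning with Timm or Tomm, Timm13, Timmdc1 and Tomm20l were higher by 0.43, 0.43 and 0.84. All were called, beside the same 9.26%, and their shared-scan differences were 0.08, 0.14 and 0.81. Tomm40, the channel of the outer membrane, was lower, beside the 7.03% of all probes called lower. It read 9851, 2959 and 1941 in the knockout and 15070, 15051 and 19533 in wild type (-2.10 ± 0.55). Every knockout array was below wild type, knockout 1 much less so than the others.

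Markers of cell types could be read for 5 of the 87 listed genes, again those in the study's list. The neuronal markers Snap25 and Camk2a differed by 0.55 and -0.86, in opposite directions. Fabp7, an astrocyte marker, read 5040, 9075 and 6875 in the knockout and 3123, 3463 and 4669 in wild type (0.88 ± 0.26). Its shared-scan difference was 0.11. The pericyte marker Anpep differed by 0.65 with overlap, and by -0.05 on the shared scan. Drd1, a striatal marker also present in deep cortical neurons, read 4103, 11346 and 4968 against 2703, 2423 and 2980, with knockout 2 far above the rest. Among the higher members, knockout 2 was the highest knockout array for Slc38a8, Slc22a3, Slc6a19, Slc44a1, Abca8b, Abcd3, Atp5s, Slc25a32, Slc7a6os and Atp2a2 probe ASMM10P006926. The others were highest in knockout 1 or 3, and the share over all probes was not counted. None of the listed markers of oligodendrocytes, microglia, endothelium, choroid plexus or blood were named. The part of cell composition in the transporter values was not tested.

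The count of called higher members was 12 without wild type 1, 13 without wild type 2 and 14 without knockout 3, in place of 25. Calls over all probes were fewer as well, at 5.2%, 5.68% and 5.83% higher in place of 9.26%. Without knockout 1, 32 members were called, beside 13.7% of all probes. The lower count was 2 in place of 4 without wild type 1, beside 3.09% of all probes. Slc38a8, Slc16a3, Slc34a3, Slc39a11 and Slc38a10 were called in the main comparison and in all 18 alternatives run.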

How the data were processed

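Cy3-labelled RNA, depleted of rRNA and primed with random and oligo(dT) primers, was hybridised to 1 long non-coding RNA and mRNA array per mouse. The authors deposited the scanner output of Feature Extraction 11.0.1.1, which gives a background-subtracted intensity per spot, linear and unscaled across arrays, together with marks of 0 or 1 for spots well above background, saturated or outlying. A deposited table of normalized log2 values was used as an alternative, and its normalization is not given in the sources used here. The log2 fold changes, ratios and p-values of the study's list were not used. Its symbols named the probes, and its lower entries were matched to probes by raw values.

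Without control and outlier spots, log2 intensity was averaged per probe name and centred on the array's 75th percentile. The filter kept 48438 probes marked above background on 3 or more of 6 arrays. The genotypes were then compared in R 4.3.3 by limma 3.58.1 (lmFit, eBayes), after a check on simulated data, with Benjamini-Hochberg adjustment over all probes kept. A probe was called at p under 0.05 and a log2 difference of at least 0.32. Nothing says that RNA was prepared on separate days, and precision is limited by the number of arrays. Members, role groups, partner genes and markers were chosen with earlier results of these data known. Members are named except 1 probe, which is not reported here but stays in the counts and medians over the blocks. By a set rule, values per array are given for lower members, families in both directions, both Atp2a2 probes and the 2 largest changes per role group. Alternatives were the scaling, background correction (normexp, offset 50, on median spot intensities), filter, the methods' t-test, scan and replicate blocks and leaving out each array. Tables were handled with pandas 2.3.3, and figures drawn with matplotlib 3.10.9.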

Additional observations from a re-analysis of the deposited data

How the results depend on the processing

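Of 665 member values under 18 alternatives, 663 kept their direction. That direction was fixed by the choice of members on these same arrays. The filters, the methods' t-test and the replicate block also leave a member's difference unchanged by construction. The tally is therefore no check on the members. With scan as a fixed block, Atp2a2 (probe ASMM10P031032) and Slc39a10 turned to -0.040 and -0.045, 1762 probes were higher and 1092 lower, 6 higher and 2 lower members were called, and the medians of the tested members moved from 0.47 to 0.25 and from -0.87 to -0.39. By construction that fit rests on knockout 1 and wild type 3, and limma with adjustment called 0 probes in it. With scan as a random block (consensus correlation 0.264), 2214 probes were lower. Without scaling, 1221 probes were higher and 7286 lower, so that 14.4% of calls were higher in place of 56.8%, 7 higher members were called, and the median of all tested higher members was 0.18. The methods' t-test called 1817 probes lower. After adjustment it called 1 probe, as did the fit with the replicate number as a block, where 3540 probes were higher, 2667 lower and 16 higher members called. Correlations between arrays with the same replicate number were -0.31, 0.11 and -0.31, so the numbers were not taken to pair the arrays. Leaving out 1 array at a time gave 2520 to 6641 probes higher, 1495 to 6409 lower, 12 to 32 higher members called and 2 to 4 lower ones. The lowest of these counts came without wild type 1, and the most probes in either direction without knockout 1. The causes of these differences in counts were not tested, other than as said for the scan block. Without knockout 1, adjusted calls went from 40 higher and 6 lower to 736 and 1310. Normexp made 36 of 37 member values smaller, 7 of them by over 1.5 times (Slc9a4, Slc6a19, Slc38a8, Slc16a3, Slc39a11, Slc25a25 and Slc35b3). It lost the calls of Slc9a4, Abcc2 and Slco4c1, and 6 other members gained one. Signal over background limits Slc44a1 and Slc6a19, and with 3 arrays a group no member passed adjustment over all probes.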
